A study of Homo sapiens with 6 samples.

Results

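The genes described here are the histone deacetylases, the sirtuins and the histone lysine demethylases. The rule took every row with an HDAC, SIRT or KDM symbol in the standard form and used no measured value; the genes comprised 37 of the 60419 genes listed: 11 HDAC, 7 SIRT and 19 KDM genes. The sequenced RNA came from 12Z, a human cell line immortalised from endometriotic tissue, which the labels give as wild type. The cells had been kept in medium with 10% charcoal-stripped serum, and received either a myrrh extract in DMSO at 100 µg/mL for 12 h (Myrrh, 3 libraries) or the DMSO vehicle (3 libraries). Both groups therefore share the line, the serum and the solvent. The labels do not say whether the 3 libraries of a group were separate cultures, so the p-values measure the spread between these libraries, which may be technical.

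Histone deacetylases remove acetyl groups from lysines of histones and other proteins. Class I enzymes are mainly nuclear and work inside corepressor complexes, class IIa enzymes shuttle between nucleus and cytoplasm and bind MEF2 transcription factors, and class IIb enzymes act largely on cytoplasmic proteins. Sirtuins are a separate family of deacylases that consume NAD+ and are found in the nucleus, the cytosol or the mitochondria. Histone demethylases remove methyl groups from lysines: KDM1 enzymes use flavin, while the other KDM enzymes carry a JmjC domain that needs iron, oxygen and 2-oxoglutarate. In endometriosis, altered histone acetylation has been a subject of study, and deacetylase inhibitors have been tried on endometriotic cells in culture.

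Levels are given as CPM, the estimated counts scaled to a common library total after TMM adjustment, for comparing 1 gene between libraries. Levels of different genes are compared in TPM, which also divides by transcript length. A gene was called where its p in the quasi-likelihood test of edgeR, adjusted by Benjamini and Hochberg's method across every tested gene, was under 0.05. Fold changes are Myrrh against DMSO on the log2 scale with their standard error (SE). Libraries held 22454783 to 27588151 estimated counts. The keratin genes KRT8, KRT18 and KRT19 were abundant, at 771, 661 and 150 mean TPM in DMSO, while the epithelial adhesion genes EPCAM and CDH1 were at 1.12 and 0.133. Of 8 stromal fibroblast markers, 7 were called lower and 1 higher, and their summed level was 2779 to 2840 TPM in DMSO and 533 to 575 TPM in Myrrh. Of 7 epithelial markers 6 were tested, with 2 called higher and 4 lower (summed level 1576 to 1607 TPM in DMSO, 1163 to 1267 in Myrrh). None of the 5 endothelial markers passed the filter on low counts, and CDH5 had no count. Of 8 leukocyte markers 3 were tested, with 1 higher and 2 lower, and CD3E and MS4A1 were among those with no count; the list's summed level of 30.3 to 34.1 TPM in DMSO and 53.6 to 76.8 TPM in Myrrh was mostly CD68. The part of these marker shifts in the results below was not tested. In bulk RNA, fewer cells of a type and less RNA per cell cannot be told apart.

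Myrrh was followed by changes in both directions within this group. Of the 37 genes, 34 passed the filter on low counts, 15 of them were called higher and 14 lower, and 5 were not called. This is 29 of 34, while 78.4% of all 16395 genes tested were called, 39.3% higher and 39.1% lower. The median fold change was -0.02 over the 34 genes and -0.02 over all genes tested, and the median size without sign was 0.43 against 0.61. A called change of at least 2-fold was reached by KDM7A and HDAC9 upward (2 of 34; 11.3% of all genes tested) and by HDAC10 and HDAC1 downward (2 of 34; 18% of all genes tested). The groups did not overlap in CPM for 29 of the 34 genes, against 80.3% of all genes tested. Scaling by library totals in place of TMM moved the median of all genes by -0.14. The calls were then 12 higher and 18 lower, and 5378 higher and 7479 lower over all genes tested. When at least 5 CPM was required in 3 libraries, 32 of the genes were tested, 12 being called higher and 16 lower. The TMM factors were estimated anew after this filter, and of all 11912 genes tested 5046 were higher and 5033 lower. Abundant members also moved, HDAC6 from -0.95 to -1.05 and KDM1A from -0.16 to -0.25.

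**Figure D1:**
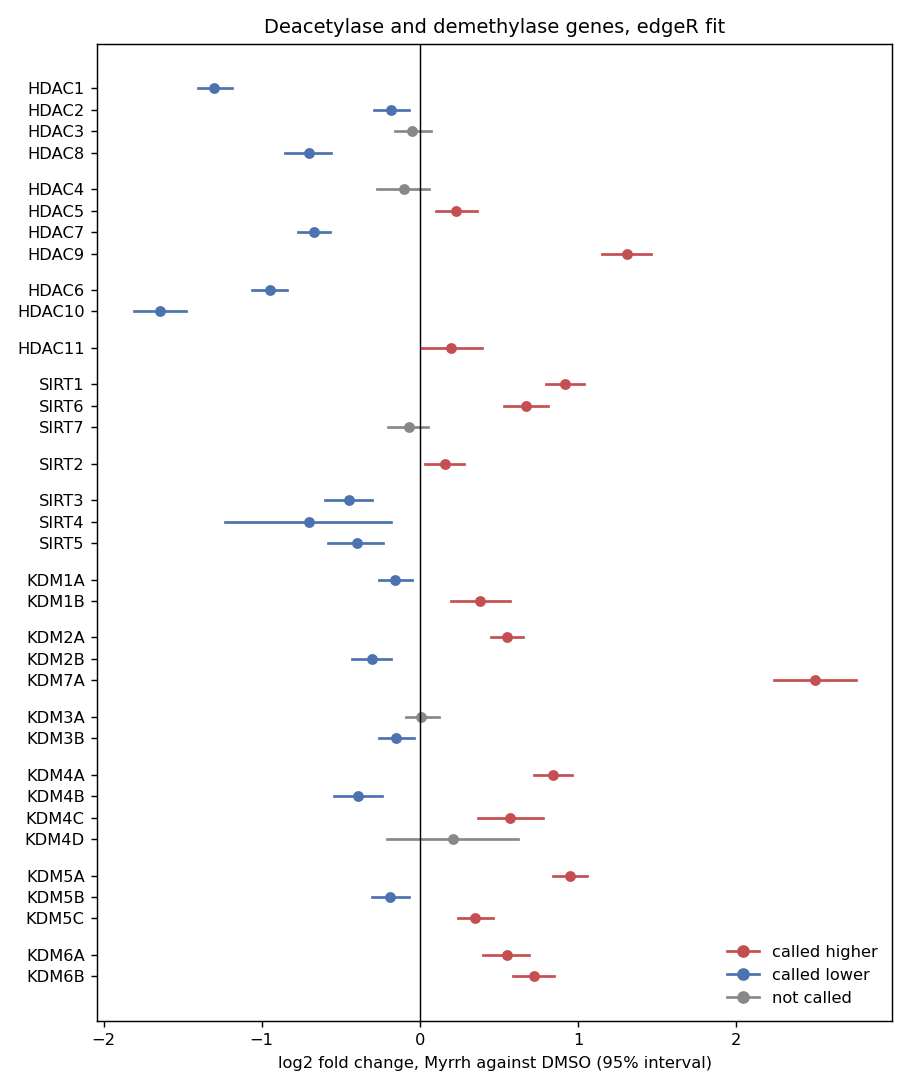
Log2 fold change (x axis, Myrrh against DMSO, with its 95% interval) of the 34 tested genes, grouped by class with a gap between classes. Red points were called higher, blue lower and grey not called; HDAC10 (-1.64) is the lowest and KDM7A (2.50) the highest.

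Of the 37 rows, KDM4E and KDM4F, JmjC genes of the KDM4 group, had no count in any library. A count of 0 allows up to 3 counts per library, which is 0.104 to 0.141 CPM. The values of KDM5D, which lies on the Y chromosome, are not given here.

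The 250 bases before the transcription start are shown for the 3 genes with the largest called decreases and the 3 with the largest called increases, so that their letters can be read beside the changes. The sequences are from RefSeq on GRCh38.p14, 5′ to 3′ on the strand of the gene, and capitals mark matches to the motifs named after them. On the minus strand lie HDAC10 (chr22:50251266-50251515), KDM7A (chr7:140176984-140177233) and KDM5A (chr12:389321-389570). On the plus strand lie HDAC1 (chr1:32291833-32292082), HDAC6 (chrX:48801817-48802066) and HDAC9 (chr7:18495499-18495748).
HDAC10: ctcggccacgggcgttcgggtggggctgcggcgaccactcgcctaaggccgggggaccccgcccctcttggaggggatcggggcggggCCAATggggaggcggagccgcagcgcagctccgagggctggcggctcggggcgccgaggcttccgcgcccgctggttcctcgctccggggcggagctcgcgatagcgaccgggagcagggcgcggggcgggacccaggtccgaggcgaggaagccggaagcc
HDAC1: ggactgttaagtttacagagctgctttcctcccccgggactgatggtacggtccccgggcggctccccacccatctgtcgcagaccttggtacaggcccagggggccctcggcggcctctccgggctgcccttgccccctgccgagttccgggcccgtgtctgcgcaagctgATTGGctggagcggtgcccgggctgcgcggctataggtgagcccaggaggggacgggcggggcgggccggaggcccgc
HDAC6: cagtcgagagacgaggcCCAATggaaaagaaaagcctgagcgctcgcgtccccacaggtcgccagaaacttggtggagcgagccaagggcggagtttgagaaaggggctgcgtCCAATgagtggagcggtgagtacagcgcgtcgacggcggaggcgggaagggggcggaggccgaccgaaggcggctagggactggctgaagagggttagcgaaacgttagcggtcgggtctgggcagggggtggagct
KDM7A: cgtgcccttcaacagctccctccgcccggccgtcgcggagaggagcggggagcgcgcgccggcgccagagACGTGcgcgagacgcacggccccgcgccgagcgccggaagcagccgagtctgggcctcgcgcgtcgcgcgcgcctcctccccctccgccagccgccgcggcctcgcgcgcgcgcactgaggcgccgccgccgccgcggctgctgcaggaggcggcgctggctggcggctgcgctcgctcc
HDAC9: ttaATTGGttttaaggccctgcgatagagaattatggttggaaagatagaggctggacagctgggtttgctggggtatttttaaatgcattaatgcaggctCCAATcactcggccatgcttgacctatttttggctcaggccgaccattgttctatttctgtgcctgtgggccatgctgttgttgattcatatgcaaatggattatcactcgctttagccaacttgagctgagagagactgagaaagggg
KDM5A: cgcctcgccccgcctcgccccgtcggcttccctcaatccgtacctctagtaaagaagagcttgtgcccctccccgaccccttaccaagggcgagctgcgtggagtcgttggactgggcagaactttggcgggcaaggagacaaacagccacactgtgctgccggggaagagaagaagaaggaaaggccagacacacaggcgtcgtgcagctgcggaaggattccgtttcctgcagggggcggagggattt

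Of the 3 decreased genes, the windows of HDAC10, HDAC1 and HDAC6 were 78%, 71.6% and 64.4% G and C. Of the 3 increased genes, the window of KDM7A was 81.6% G and C with 50 CpG dinucleotides, that of KDM5A 62% with 18 and that of HDAC9 45.2% with 4. RefSeq lists more than 1 start for 10 of the 32 tested members it covers, and the first listed was used for every gene. For HDAC9 the 5 listed starts differ: over the 300 bases of each entry (250 before to 50 after the start) they were 47.3%, 75%, 45.3%, 49.3% and 40% G and C, and the data used here do not say which one is in use. The median over the 32 members was 65.7%, against 65.3% over the promoters of tested genes.

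The 300-base windows were searched on both strands for 5 motifs. CCAAT, the letters of the NF-Y box, was found in 13 of 32 member windows (40.6%). It was found in 35.7% of 27305 promoters, 1 for each gene, and in 36.3% of the promoters of tested genes. In HDAC10 it began 162 bases before the start, in HDAC1 78 (on the opposite strand), in HDAC6 233 and 137, and in HDAC9 247 (opposite strand) and 149. ACGTG, the core letters of hypoxia-responsive sites, was found in 10 of 32 member windows (31.2%). It was found in 21.6% of all promoters and in 26.5% of those of tested genes. In KDM7A it began 180 bases before the start. CACGTG, the E-box, which contains ACGTG, was found in 4 of 32, in 7.43% of all and in 9.91% of those of tested genes. GAANNTTC, a pair of heat shock element units, was found in 1 of 32 (SIRT4), in 6.87% of all and in 4.67% of those of tested genes, and TGATGCAA, the letters of a C/EBP-ATF composite site, in none of 32, in 0.923% and in 0.498%. A match is a match of letters in this window only; 2 of the other 4 starts of HDAC9 also held CCAAT. HDAC6 has 3 listed starts, of 64.3%, 53% and 68.7% G and C over 300 bases, and the second held none of the 5 motifs.

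Among class I deacetylases, HDAC1 fell the most. HDAC1 and HDAC2 are the close catalytic subunits of the NuRD, SIN3 and CoREST complexes. HDAC1 was at 190, 189 and 191 CPM in DMSO and at 78.1, 79.9 and 74.4 CPM in Myrrh. All 3 Myrrh libraries were far below all 3 DMSO libraries, a 2.45-fold lower mean (log2 fold change -1.30 ± 0.05, SE, adjusted p = 4.43e-18). HDAC2 was at 118, 124 and 124 CPM in DMSO and 106, 116 and 102 CPM in Myrrh. The HDAC2 groups lay close together without overlap, and the called change was small (-0.18 ± 0.05, adjusted p = 0.00384); on the authors' log2(TPM + 1) values it was -0.08 with an adjusted p of 0.188 in limma.

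HDAC8, a class I enzyme that acts on the cohesin subunit SMC3, fell from 28.4, 29.7 and 31.1 CPM to 18.8, 18.6 and 17.4 CPM (-0.70 ± 0.07, adjusted p = 8.75e-10). HDAC3, the catalytic subunit of the NCoR/SMRT complex, was at 54.2, 52 and 52.1 CPM in DMSO and 52.1, 48.8 and 52.5 CPM in Myrrh. These HDAC3 values overlapped and were not called (-0.05, 95% interval -0.16 to 0.07), but HDAC3 was called lower with library totals (-0.19) and with the 5 CPM filter (-0.14). None of the 4 class I genes was called higher and 3 were called lower. Over all genes tested, 39.3% were higher and 39.1% lower.

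**Figure D2:**
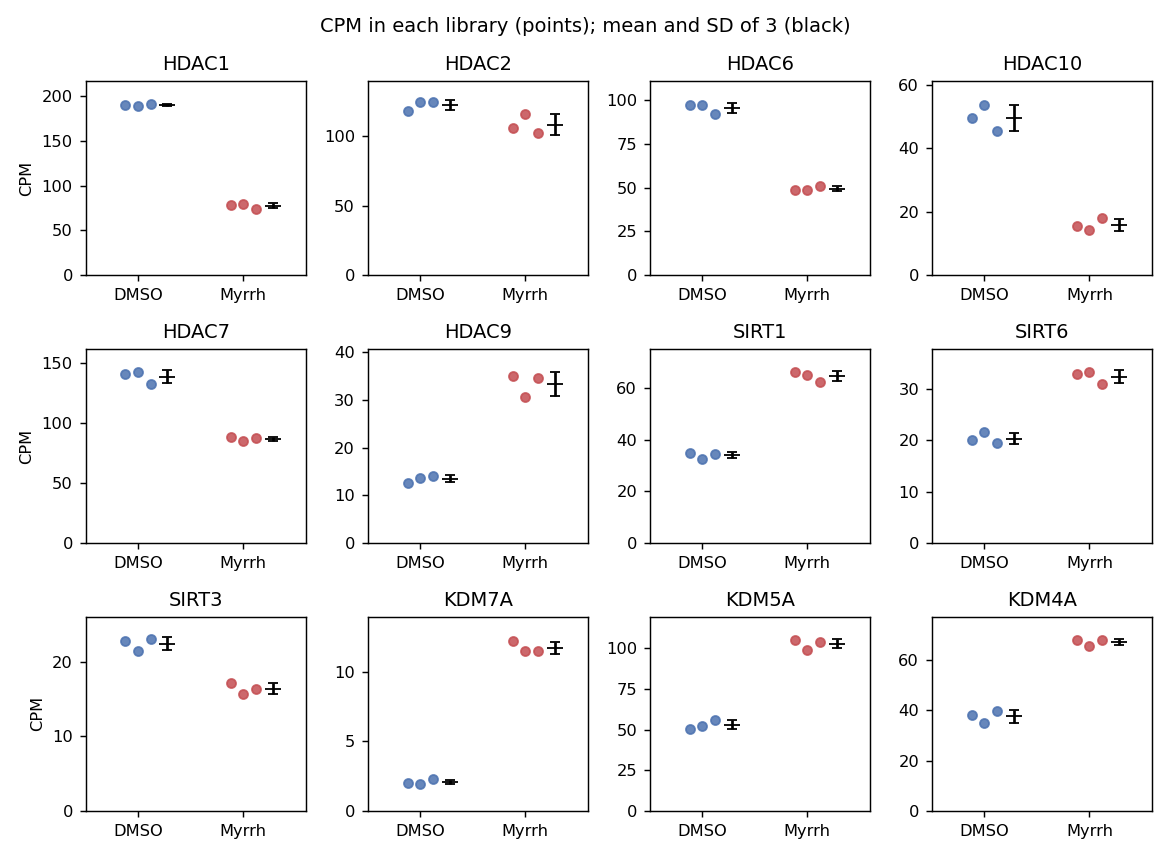
CPM (y axes, from 0) of 12 genes in each of the 3 DMSO and 3 Myrrh libraries (points), with the mean and SD of each group in black. HDAC1, HDAC6, HDAC10, HDAC7 and SIRT3 are lower in every Myrrh library and HDAC9, SIRT1, SIRT6, KDM7A, KDM5A and KDM4A higher; HDAC2 shows a small gap.

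Class IIb held the largest fall. HDAC10, a deacetylase of acetylated polyamines, was at 49.7, 53.6 and 45.5 CPM in DMSO and at 15.4, 14.3 and 17.9 CPM in Myrrh. The Myrrh libraries were all under the lowest DMSO library, with a 3.12-fold lower mean (-1.64 ± 0.08, adjusted p = 5.00e-15). HDAC10 shares 55.8% of its exon bases with MAPK12, the next gene on the same strand, in GENCODE 29, and its estimated counts were not whole numbers in any of the 6 libraries, so its value is uncertain to that extent. MAPK12 itself was at 65.8 and 38.4 mean CPM in DMSO and Myrrh.

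HDAC6, the main deacetylase of tubulin, which also carries ubiquitinated proteins to aggresomes, was at 97.1, 97 and 91.9 CPM in DMSO and 48.5, 48.4 and 50.9 CPM in Myrrh. It fell by 0.95 ± 0.05 on the log2 scale (adjusted p = 7.42e-15), and the groups did not overlap. Its counts were whole in all libraries.

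Class IIa moved in opposite directions. HDAC9 rose from 12.7, 13.6 and 14.1 CPM to 35, 30.6 and 34.6 CPM, a 2.48-fold higher mean (1.31 ± 0.08, adjusted p = 1.25e-14). HDAC7, the most abundant class IIa gene here, fell from 141, 143 and 133 CPM to 88.2, 85.4 and 87.9 CPM (-0.67 ± 0.05, adjusted p = 2.02e-12). The groups of both genes were well apart; HDAC7 counts were not whole numbers in any library and are uncertain to that extent. HDAC5 rose slightly (0.23 ± 0.06, adjusted p = 0.00168), from 35.7, 37.7 and 36.8 CPM to 41, 41.8 and 46.7 CPM, and this call was lost with library totals (0.09), with the 5 CPM filter (0.13) and on log2(TPM + 1) (0.08).

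HDAC4 was not called in counts but differed in TPM by library. It was at 17.8, 20 and 18.2 CPM in DMSO and 18.3, 16.3 and 17.6 CPM in Myrrh (-0.10, 95% interval -0.27 to 0.06). In TPM it was at 3.32, 3.73 and 3.55 in DMSO and at 5.93, 3.01 and 6.28 in Myrrh, so that 2 Myrrh libraries were above and 1 below all DMSO libraries. The estimated counts per unit of TPM, which follow the transcript length that RSEM assigns, were lower by 0.51 on the log2 scale in Myrrh relative to the median gene, a shift whose size 3.65% of tested genes reached. The same measure was -0.34 for HDAC9. With library totals or the 5 CPM filter HDAC4 was called lower (-0.25 and -0.20), and on log2(TPM + 1) its difference was 0.37 (limma adjusted p = 0.121).

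HDAC11, the only class IV enzyme, was at 10.8, 9.96 and 10.6 CPM in DMSO and 11.3, 12.9 and 11.9 CPM in Myrrh. It was called higher at the edge of the threshold (0.20 ± 0.09, adjusted p = 0.0492). The call was lost with DESeq2, with library totals, with the 5 CPM filter, on log2(TPM + 0.1) (limma adjusted p = 0.052), with the replicate number as a block (adjusted p = 0.0625) and without DMSO replicate 1 (0.0707), 2 (0.183) or 3 (0.0709) or Myrrh replicate 2 (0.164) or 3 (0.0533).

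The make-up of the deacetylase transcripts differed accordingly. Summed over the 11 HDAC genes, the level was 539, 525 and 541 TPM in DMSO and 385, 349 and 374 TPM in Myrrh. HDAC1 held 25.4%, 24.8% and 25.6% of this sum in DMSO and 16.1%, 16% and 15.4% in Myrrh. HDAC2 held 17.8% to 18.8% in DMSO and 24% to 27.1% in Myrrh, so HDAC1 was the higher of the pair in every DMSO library and HDAC2 in every Myrrh library. The ratio of HDAC1 to HDAC2 in TPM was 1.42, 1.33 and 1.36 in DMSO and 0.672, 0.588 and 0.622 in Myrrh. HDAC10 went from rank 7 to rank 20 among the 36 genes ordered by mean TPM. The gene pairs compared as ratios here and further on were picked after their values were seen, and no test was made of them.

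**Figure D3:**
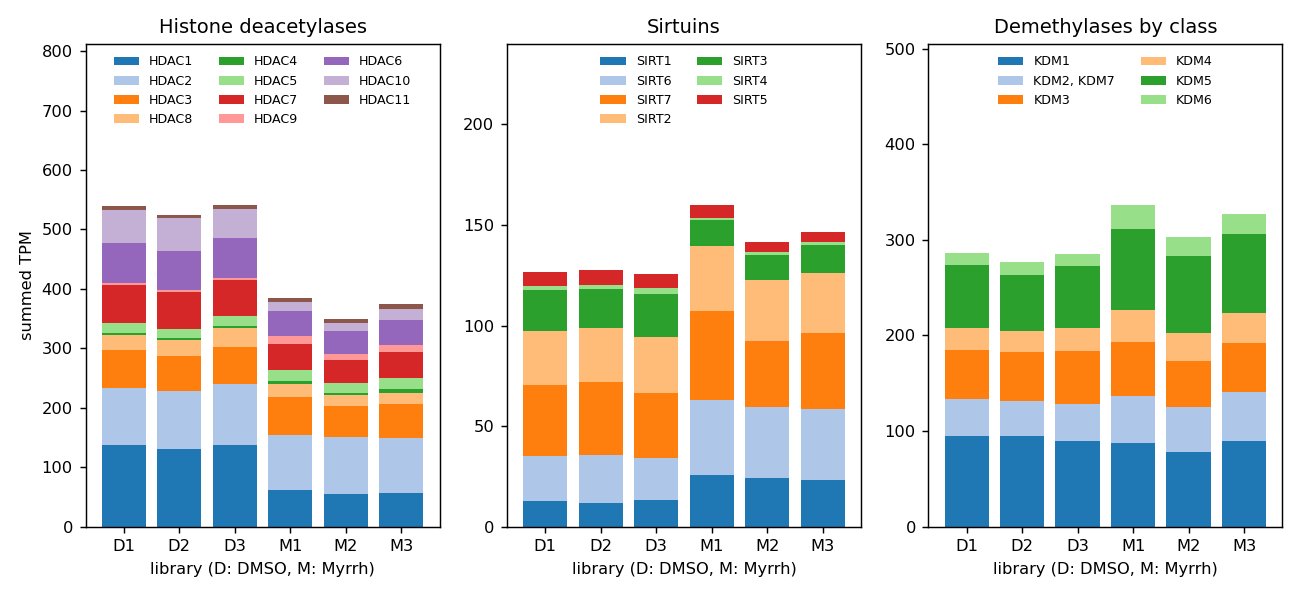
Summed TPM (y axes, from 0) in each library (x axes; D1 to D3 DMSO, M1 to M3 Myrrh), stacked by gene for histone deacetylases and sirtuins and by class for demethylases (without KDM5D). The deacetylase bars are 525 to 541 in DMSO and 349 to 385 in Myrrh, and the sirtuin and demethylase bars are higher in every Myrrh library.

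Of the 7 sirtuins, 3 were called higher, 3 lower and 1 not called, where 39.3% of all genes tested were higher and 39.1% lower. Of the mainly nuclear sirtuins, SIRT1, which deacetylates p53 and other transcription regulators, was at 35.1, 32.7 and 34.7 CPM in DMSO and at 66.4, 65.2 and 62.5 CPM in Myrrh. It rose by 0.92 ± 0.06 (adjusted p = 6.76e-14). SIRT6, a deacetylase of histone H3 involved in DNA repair and glucose metabolism, rose from 20, 21.5 and 19.4 CPM to 32.8, 33.2 and 30.8 CPM (0.67 ± 0.07, adjusted p = 1.56e-09). For both genes every Myrrh library was above every DMSO library. SIRT7, a nucleolar sirtuin, was at 52.5, 54.8 and 47.2 CPM in DMSO and 50.7, 46.9 and 49.2 CPM in Myrrh, which overlapped (-0.07, 95% interval -0.20 to 0.05); with library totals and with the 5 CPM filter it was called lower (-0.21 and -0.17).

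SIRT2, mainly cytosolic and a tubulin deacetylase, was at 35.6, 35.9 and 35.4 CPM in DMSO and 38.9, 41.9 and 38.3 CPM in Myrrh. Its call (0.16 ± 0.06, adjusted p = 0.0203) was lost with library totals (0.01), with the 5 CPM filter (0.06), with DESeq2 (adjusted p = 0.0504) and without DMSO replicate 1 (0.0676), DMSO replicate 2 (0.0549) or Myrrh replicate 2 (0.0755).

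All 3 mitochondrial sirtuins were called lower, where 39.1% of all genes tested were, and the call of SIRT4 was lost in some fits. SIRT3, the main mitochondrial deacetylase, fell from 22.8, 21.4 and 23 CPM to 17.2, 15.6 and 16.3 CPM (-0.45 ± 0.07, adjusted p = 5.13e-06). SIRT5, which removes succinyl and malonyl groups, fell from 16.8, 16.5 and 16.6 CPM to 13.2, 13.1 and 11.3 CPM (-0.40 ± 0.08, adjusted p = 0.000101). The groups of both genes were apart by more than their spread.

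SIRT4, an inhibitor of glutamate dehydrogenase, was low, at 1.73, 1.53 and 1.98 CPM in DMSO and 0.797, 1.39 and 1.03 CPM in Myrrh. Its call (-0.70 ± 0.25, adjusted p = 0.0144) was lost with DESeq2 (0.0526), without DMSO replicate 3 (-0.60, adjusted p = 0.0746) and without Myrrh replicate 1 (-0.52, adjusted p = 0.0885). SIRT3 shares 6.07% of its exon bases with PSMD13, a proteasome subunit gene on the opposite strand. PSMD13 was at 84 and 160 mean CPM in DMSO and Myrrh, and no source used here says whether strand was used in counting. The counts of SIRT3 were whole in all libraries.

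In TPM, the nuclear sirtuins together held 52.9% to 56.5% of the sirtuin sum in DMSO and 65.1% to 67% in Myrrh. The mitochondrial sirtuins held 22.3% to 25.1% and 12.6% to 13.8%. The ratio of SIRT1 to SIRT3 was 0.616 to 0.627 in DMSO and 1.68 to 1.99 in Myrrh, so the higher of the 2 genes differed between the groups.

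Of the 16 KDM genes tested, 9 were called higher, 5 lower and 2 not called, with a median of 0.37; over all genes tested 39.3% were higher, 39.1% lower and the median was -0.02. The largest change in the whole group was in KDM7A, a JmjC demethylase of H3K9 and H3K27 with a PHD finger. It rose from 2.02, 1.94 and 2.27 CPM to 12.2, 11.5 and 11.5 CPM, a 5.65-fold higher mean (2.50 ± 0.13, adjusted p = 8.21e-16). The 3 Myrrh values lay together and far above the DMSO values, yet the level stayed low, at 2.94, 2.08 and 3.65 TPM. On log2(TPM + 1), which shrinks changes of low genes, the difference was 1.39, and with 0.1 added in place of 1 it was 2.40.

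KDM2A and KDM2B, CpG-island-binding demethylases of H3K36, went in opposite directions. KDM2A rose from 72.8, 72.6 and 71.5 CPM to 106, 104 and 108 CPM (0.55 ± 0.05, adjusted p = 1.04e-10). KDM2B fell from 41.4, 42.8 and 42.3 CPM to 34.2, 33.6 and 34.7 CPM (-0.30 ± 0.06, adjusted p = 4.14e-05), but on log2(TPM + 1) it was not called (-0.18, limma adjusted p = 0.0813). Counts were not whole in 6 of 6 libraries for KDM2A and in 5 of 6 for KDM2B, so both are uncertain to that extent. The KDM2A to KDM2B ratio in TPM was 1.41 to 1.65 in DMSO and 2.3 to 2.69 in Myrrh.

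The KDM4 enzymes, which act on H3K9 and H3K36, were also mixed. KDM4A rose from 38.3, 34.9 and 39.6 CPM to 67.9, 65.7 and 68.2 CPM (0.84 ± 0.06, adjusted p = 7.54e-13). KDM4C rose from 7.91, 7.53 and 8.11 CPM to 12.6, 11.1 and 11.3 CPM (0.57 ± 0.10, adjusted p = 8.12e-06). KDM4B fell from 26.8, 28.1 and 26.7 CPM to 21.6, 18.6 and 21.9 CPM (-0.39 ± 0.07, adjusted p = 2.41e-05). For these 3 genes the groups did not overlap. KDM4D, at about 2 CPM, overlapped between the groups and was not called (0.21, 95% interval -0.21 to 0.62). KDM4A counts were not whole in any library and are uncertain to that extent; it shares 40.2% of its exon bases with another annotated gene on its strand, AL451062.3, which had 0 CPM in both groups.

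Among the KDM5 enzymes, which remove methyl groups from H3K4, KDM5A, a binding partner of the retinoblastoma protein, rose from 50.7, 52.4 and 56.2 CPM to 105, 99.3 and 104 CPM. That was a 1.93-fold higher mean (0.95 ± 0.05, adjusted p = 1.00e-14). KDM5C, encoded on the X chromosome, rose from 122, 120 and 113 CPM to 148, 147 and 157 CPM (0.35 ± 0.05, adjusted p = 9.18e-07). KDM5B, by contrast, fell from 75.4, 70.8 and 76.9 CPM to 64.1, 62.4 and 69.4 CPM (-0.19 ± 0.06, adjusted p = 0.00386). The KDM5A to KDM5B ratio in TPM was 0.368 to 0.399 in DMSO and 0.874 to 1.1 in Myrrh.

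Both KDM6 demethylases of H3K27 rose. KDM6A, also called UTX and a subunit of the MLL3 and MLL4 complexes, went from 23.1, 23.6 and 22.8 CPM to 35.3, 30.3 and 36 CPM (0.55 ± 0.07, adjusted p = 9.54e-08). KDM6B, also called JMJD3 and known as an inflammation-induced gene, went from 30.6, 31.6 and 28 CPM to 51, 50.9 and 46.4 CPM (0.72 ± 0.06, adjusted p = 1.01e-10). Every Myrrh library was above every DMSO library for both, while their ratio in TPM overlapped between the groups (1.04 to 1.15 in DMSO, 0.69 to 1.2 in Myrrh).

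Of the remaining demethylases, KDM1A, or LSD1, the flavin-dependent H3K4 demethylase of the CoREST complex, was at 90.7, 90.6 and 85.4 TPM in DMSO and 81.7, 73.2 and 83.6 TPM in Myrrh. Its fall in counts was small (-0.16 ± 0.05, adjusted p = 0.0086) and not called without a filter on low counts (-0.12). Its relative KDM1B rose from 12.9, 12 and 13.6 CPM to 18.2, 14.8 and 17.1 CPM (0.38 ± 0.09, adjusted p = 0.000327). KDM3B, an H3K9 demethylase, had a small called decrease (-0.15 ± 0.05, adjusted p = 0.0109), from 75.5, 76 and 80 CPM to 69.3, 66.5 and 72.2 CPM, which was lost without a filter on low counts (-0.12), on log2(TPM + 1) (-0.14) and without DMSO replicate 3 (-0.13, adjusted p = 0.059). KDM3A, its hypoxia-inducible relative, was at 79.7, 83.7 and 87.6 CPM in DMSO and 85.1, 82.6 and 85.6 CPM in Myrrh, which overlapped (0.01, 95% interval -0.09 to 0.12); with library totals it was called lower (-0.13).

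**Figure D4:**
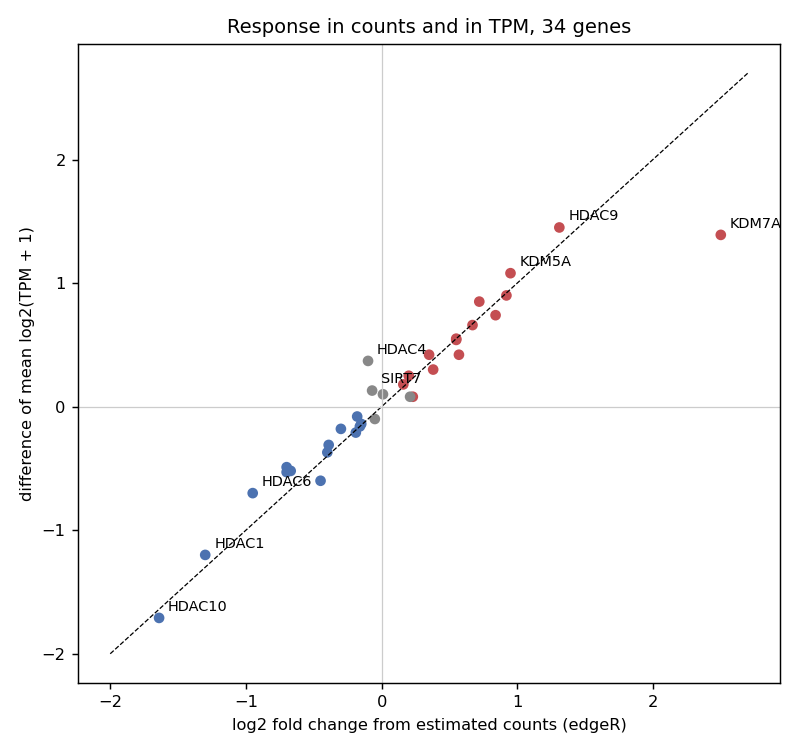
Log2 fold change from estimated counts (x axis) against the difference of mean log2(TPM + 1) (y axis) for the 34 tested genes, coloured by call in counts (red higher, blue lower, grey not called); the dashed line marks equality. HDAC4 lies above the line (-0.10 and 0.37) and KDM7A below it (2.50 and 1.39).

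By level, HDAC1 (135 mean TPM), HDAC2 (98.6), KDM1A (88.9), HDAC6 (67.1), HDAC3 (62.1) and HDAC7 (61.5) led in DMSO. HDAC3 and HDAC7, at 59.1 to 64.1 and 59.8 to 63.6 TPM, did not differ beyond their spread. In Myrrh the order was HDAC2 (93.2 mean TPM), KDM1A (79.5), HDAC1 (58.4), HDAC3 (58), HDAC7 (42.6) and KDM5C (41.3). HDAC6 followed at 41. HDAC1 and HDAC3 overlapped in Myrrh, as did HDAC7, KDM5C and HDAC6. SIRT1 went from rank 20 to 13 and SIRT6 from 16 to 9.

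The partners and opposing enzymes, in 13 lists with 113 genes tested, were called higher in 50 cases and lower in 42, with a median of 0.03. Over all genes tested 78.4% were called, 39.3% higher and 39.1% lower. The counts of single lists below are descriptions to be read against these shares, with no test of any list. The lists were chosen with earlier results of these data known. In the NuRD complex, which holds HDAC1 and HDAC2, 3 of 11 genes rose and 6 fell (median -0.16). The remodelling ATPases CHD3 (-1.01 ± 0.06) and CHD4 (-0.68 ± 0.05) fell, and GATAD2A (0.68 ± 0.05) and GATAD2B (0.35 ± 0.06) rose. Of 13 SIN3 complex genes 8 rose and 4 fell (median 0.31), with BRMS1 at 1.21 ± 0.06 and SAP130 at 0.65 ± 0.06, while the scaffolds SIN3A (-0.56 ± 0.06) and SIN3B (-0.47 ± 0.06) fell. Of 10 CoREST genes 2 rose and 5 fell (median -0.29). ZMYM3, a zinc finger subunit, had the largest decrease of any of these lists, from 121, 120 and 119 CPM to 32.9, 28.7 and 32.3 CPM (-1.94 ± 0.06), and GSE1 followed in that complex (-1.19 ± 0.06), while the scaffold RCOR1 (0.34 ± 0.06) rose.

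The corepressor NCoR/SMRT list, built around HDAC3, had 2 of 5 genes higher (NCOR1, 0.30 ± 0.05, and GPS2, 0.22 ± 0.05) and 2 lower (TBL1XR1, -0.38 ± 0.05, and TBL1X, -0.19 ± 0.06, which overlapped in TPM). In the mitotic deacetylase complex MiDAC, DNTTIP1 rose (0.57 ± 0.06) and TRERF1 fell (-1.79 ± 0.07), of 3 genes. MEF2 factors and known targets of class IIa repression were called higher in 6 of 7 cases and lower in none (median 0.85), against 39.3% of all genes tested called higher. NR4A1, an orphan nuclear receptor, went from 10.1, 9.58 and 9.16 CPM to 21.8, 26.1 and 23.4 CPM (1.31 ± 0.09). MEF2B rose by 1.25 ± 0.27, from 3.2, 2.36 and 1.95 CPM to 4.19, 5.42 and 8.22 CPM. The counts of NR4A1 and MEF2B were not whole in any library and are uncertain to that extent. Among the other genes named from these lists, the same holds for CHD4, GPS2, KAT5, EHMT1, EHMT2, NAMPT, JMJD4 and JMJD8. KLF4 (0.62 ± 0.08) and KLF2 (0.59 ± 0.12) had the smallest called increases, and KLF2 overlapped between the groups in TPM.

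Of 12 histone acetyltransferases, the counterparts of the deacetylases, 7 rose and 3 fell (median 0.29). KAT7 (0.94 ± 0.06) and KAT5, or TIP60 (0.83 ± 0.07), rose. The paralogs KAT2A, or GCN5, from 162, 171 and 154 to 72.3, 66.4 and 62.4 CPM (-1.28 ± 0.06), and KAT2B, or PCAF (-1.02 ± 0.08), fell.

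Of the methyltransferases, the PRC2 list, which writes the H3K27 mark that KDM6 enzymes remove, had 1 of 5 genes higher and 3 lower (median -0.34). EZH2, its catalytic subunit, was at 92.5, 92.4 and 92.7 CPM in DMSO and 44.2, 40.3 and 37.1 CPM in Myrrh (-1.19 ± 0.06). EZH1 also fell (-0.84 ± 0.06), and the accessory subunit JARID2 rose (1.48 ± 0.07). H3K4 methyltransferases and subunits of their complexes were called higher in 1 of 10 cases (the subunit RBBP5, 1.01 ± 0.07) and lower in 4. The subunit DPY30 (-0.51 ± 0.06) and the enzyme SETD1B (-0.48 ± 0.07) were lowest. Of 6 H3K9 writers 2 rose (SETDB2, 1.59 ± 0.08, and SUV39H2, 0.82 ± 0.08) and 3 fell, led by EHMT2 (-0.63 ± 0.06) and EHMT1 (-0.33 ± 0.05). Of 5 H3K36 writers 3 rose, NSD1 (0.52 ± 0.06) and SETD2 (0.42 ± 0.05) the most, and NSD2 fell (-0.67 ± 0.05).

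Genes of NAD+ synthesis and use, the cosubstrate of sirtuins, were called higher in 4 and lower in 8 of the 12 tested cases of 15 (median -0.34; 78.4% of all genes tested were called). NAMPT, the rate-limiting enzyme of NAD+ salvage, rose from 256, 257 and 275 CPM to 793, 814 and 814 CPM (1.62 ± 0.06, adjusted p = 2.33e-19), and the nuclear enzyme NMNAT1 rose by 0.83 ± 0.08. NMNAT2 (-1.79 ± 0.16) and NADSYN1, which makes NAD+ from the deamidated precursor (-1.09 ± 0.06), fell. Other JmjC-domain proteins, outside the KDM names used here or with other substrates, were higher in 10 of 14 cases and lower in 2 (median 0.70), against 39.3% and 39.1% of all genes tested. JMJD4 (1.81 ± 0.09) and JMJD6 (1.48 ± 0.06) had the largest increases, JMJD6 from 27.2, 26.7 and 28 to 72.7, 76.8 and 79.1 CPM. HR (-1.45 ± 0.31) and JMJD8 (-0.26 ± 0.06) fell in counts but overlapped in TPM. HR was at 0.32, 0.66 and 0.58 TPM in DMSO and 0.12, 0.57 and 0.63 TPM in Myrrh, a difference of -0.09 on log2(TPM + 1).

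**Figure D5:**
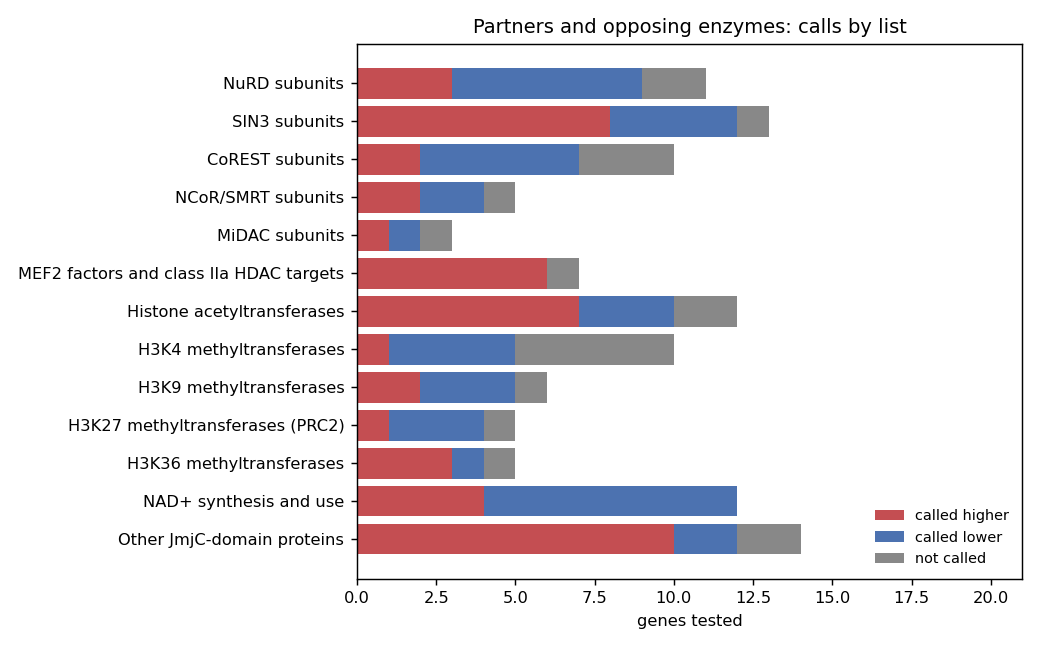
Number of tested genes (x axis) called higher (red), lower (blue) or not called (grey) in each list of partners and opposing enzymes (y axis). The other JmjC-domain proteins (10 of 14) and the MEF2 list (6 of 7) were mostly higher, and NAD+ genes were 4 higher and 8 lower.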

How the data were processed

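Estimated counts per gene were deposited by the authors, as RSEM makes them, with no scaling between libraries; the second deposited table holds log2(TPM + 1) values that the authors made from TPM. The submitters' processing notes name STAR, RSEM 1.3.1 and GRCh38; no source used here gives the annotation release or the strand setting. The labels' protocols give 1.5 µg of total RNA per library as input. Of each library's values, 11.1% to 12.2% were not whole, because RSEM divides reads among genes.

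Counts were rounded, filtered with filterByExpr and scaled by TMM (factors 0.9335 to 1.054). Groups were compared with the quasi-likelihood F-test of edgeR (edgeR 4.0.16, limma 3.58.1, DESeq2 1.42.0, R 4.3.3), two-sided, without a block, over 16395 genes; SE is the log2 fold change divided by the root of F. The members, the lists and the rule for named genes (all members; of each list, the 2 highest and 2 lowest called genes) were chosen with earlier results of these data known. Some genes that the rule would name are not reported here. Alternatives were DESeq2, library totals, other filters, glmTreat, limma on TPM, a replicate block and leaving out each library. Gene positions are from GENCODE 29, promoters from RefSeq (the first start listed for each gene); HDAC5 and SIRT7, of the tested members, matched no promoter entry. Floors cover counting error only. Within groups, pairs of libraries differed by 3.85 to 9.19 in chi-square per degree of freedom, so none agreed within sampling noise. The test was checked on simulated data in which most genes were unchanged. As 78.4% of the genes tested were called here, that check does not cover a response this broad.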

Additional observations from a re-analysis of the deposited data

How the results depend on the processing

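Of the 34 tested members, 13 kept their direction and their side of the threshold in all 14 alternatives, and 22 in all but glmTreat. glmTreat, which asks for a change beyond 0.5 on the log2 scale, called 7 members higher and 5 lower. It called 23 companion genes higher and 19 lower, and 3472 of all 16395 genes higher and 4011 lower. Leaving out 1 library gave 13 to 15 members higher and 12 to 14 lower, and 48 to 53 and 41 to 43 companion genes; the calls of HDAC11, KDM3B, SIRT2 and SIRT4 were lost in at least 1 such fit. KDM3A went from 0.01 to -0.13 (adjusted p = 0.034) with library totals, which move the median of all genes by -0.14. With the replicate number as a block, 14 members were higher and 14 lower, the call of HDAC11 being the 1 lost (adjusted p = 0.0625); same-numbered libraries did not deviate together (correlations -0.0596, -0.00454 and 0.0361), so the numbers were not taken as pairs. DESeq2 gave 13 higher and 13 lower, and limma on log2(TPM + 1) 14 and 11. Over all 16395 genes the calls were 6139 higher and 6047 lower with DESeq2, and 6382 and 5516 with limma. With the block they were 6390 and 6392. Leaving out 1 library, 49.4% to 50.4% of the calls over all genes were higher. Depth limits SIRT4, KDM4D and KDM7A most, which had 41 to 63 counts per library in DMSO.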

Other observations

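Transcripts named after the members were looked at beside them, chosen after their values were seen. KDM7A-DT, the divergent noncoding transcript at the KDM7A start, had 1, 0 and 2 counts in the DMSO libraries and 15, 9 and 11 in the Myrrh libraries. Too few counts left it untested, and the ratio of summed counts after scaling was 13.9, with a 95% counting interval of 4.38 to 70.6 (exact binomial, counting error only). KDM4A-AS1, an antisense gene, shares 464 exon bases with KDM4A. It fell by 0.95 ± 0.18 on the log2 scale (edgeR adjusted p = 3.4e-05), while KDM4A rose by 0.84. Neither gene had whole counts in any library and the strand setting is not known, so both changes are uncertain to that extent. On log2(TPM + 1) the difference of KDM4A-AS1 was -0.43. KDM2B-DT had 16 counts in all DMSO libraries together and 4 in all Myrrh libraries together. The ratio was 3.36 toward DMSO, with a 95% counting interval of 1.08 to 13.8 that leaves out the spread between libraries. By library the groups overlapped, at 0.253, 0.243 and 0.108 CPM in DMSO and 0.126, 0 and 0.047 CPM in Myrrh. HDAC2-AS2 had 35 and 17 counts, a ratio of 1.73 with an interval of 0.943 to 3.29. The HDAC1 pseudogenes HDAC1P1 and HDAC1P2 had at most 2 counts in any library, and HDAC1's own counts were whole in all 6 libraries. SIRT7 shares 1.71% of its exon bases with its neighbour on the same strand, MAFG, which was at 68.3 and 226 mean CPM in DMSO and Myrrh. The counts of SIRT7 were whole in all 6 libraries.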
